A study of Mus musculus with 8 samples.

Results

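The transcripts described here are those of 10 genes of 1 signalling route, the calcium-activated phosphatase calcineurin, its regulators and the mitochondrial fission machinery it acts on, in superior cervical ganglia of newborn mice. They were chosen by symbol: the calcineurin subunits Ppp3ca, Ppp3cb, Ppp3cc and Ppp3r1, the regulators of calcineurin Rcan1, Rcan2 and Rcan3, and the fission factors Dnm1l, Mff and Fis1. Each stood on 1 row of the 23827 rows of the count table, and all 10 were among the 14592 genes with enough counts to be tested. The study compared ganglia that had lost the kinesin KIF1B beta in noradrenergic cells with ganglia that kept it. The 4 conditional knockout (cKO) animals had the genotype KIF1Bb fl/fl with DBHcre +/-, so that both Kif1b beta alleles were flanked by loxP sites and Cre was driven by the promoter of Dbh, the dopamine beta-hydroxylase gene of noradrenergic cells. The 4 control (WT) animals carried the same KIF1Bb fl/fl alleles and were DBHcre -/-, so that no animal of the study had an unmodified Kif1b locus. All animals were of strain C57Bl6/n and were taken on postnatal day 1, and each library came from the ganglion pair of 1 animal. Cells of the ganglion that never express Dbh keep the gene, and their RNA is part of every library.

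Calcineurin is a phosphatase made of a catalytic A subunit and a calcium-binding B subunit, and is switched on when calcium-loaded calmodulin binds the A subunit. It dephosphorylates the NFAT transcription factors, which then enter the nucleus, and the fission GTPase DRP1, the product of Dnm1l, which then gathers on the outer mitochondrial membrane and constricts it. RCAN proteins bind the catalytic subunit and restrain it. In sympathetic neurons the route is known for linking calcium entry and neurotrophin signals to transcription, endocytosis and axon growth. KIF1B beta has been tied to it as a protein reported to bind calcineurin and, through DRP1, to drive mitochondrial fission and cell death.

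Libraries held between 16214912 and 18114418 counts. Kif1b, the targeted gene, had 260 ± 52.7 CPM (counts scaled to library size, corrected by TMM) in cKO and 1224 ± 222 CPM in WT ganglia (SD, n = 4 each). Its log2 fold change was -2.24 (SE 0.18) with an edgeR adjusted p of 3.43e-04. The count is of the whole gene and gives no separate value for the beta form. Th and Dbh, which mark noradrenergic neurons, were abundant in both groups, at 1233 ± 74.7 and 2117 ± 69.7 CPM in cKO and 1344 ± 107 and 2421 ± 195 CPM in WT ganglia, and neither passed. Sox10, a glial transcription factor gene, averaged 104 CPM in cKO and 64.8 CPM in WT ganglia, a log2 difference of 0.68 with an SE of 0.18 (edgeR adjusted p = 0.0704). The summed level of 14 noradrenergic markers lay between 11800 and 12800 CPM in cKO and between 13400 and 14600 CPM in WT libraries. None of the 14 passed the test and 6 had estimates above 0. The gap between the sums came mainly from Slc6a2, the noradrenaline transporter gene, at 2694 CPM in cKO and 3829 CPM in WT ganglia (edgeR adjusted p = 0.0545), and without it the sums were 9360 to 9740 CPM in cKO and 9630 to 10400 CPM in WT libraries, which overlapped. Of 10 pan-neuronal markers 2 fell, Nefl and Nefm, and the sum was 14200 to 17800 CPM in cKO and 17300 to 19400 CPM in WT libraries. Some markers of other cells moved the other way: 3 of 12 glial, 5 of 10 blood vessel and 5 of 9 fibroblast markers rose, and their sums were 3420 to 3940, 435 to 513 and 7260 to 10700 CPM in cKO against 2290 to 2870, 267 to 341 and 5220 to 6730 CPM in WT libraries. None of 8 macrophage markers passed, with overlapping sums of 153 to 241 CPM in cKO and 129 to 196 CPM in WT libraries, nor did any of 3 tested cartilage markers, with list sums of 55.4 to 79.0 CPM in cKO and 38.0 to 68.8 CPM in WT libraries. In bulk tissue, fewer cells of a type and less RNA per cell cannot be told apart. Libraries cKO 1 and WT 1 stood apart from the others on the first principal component, which held 37.1% of the variance. They also held the most skeletal muscle marker RNA, 225 and 77.2 CPM over 12 genes, against 22.9 to 29.0 CPM in the other cKO and 19.8 to 38.2 CPM in the other WT libraries. Sensory neuron markers summed to 247 CPM in cKO 4, against 80.1 to 91.6 CPM in the other cKO and 137 to 172 CPM in the WT libraries. No marker of any list was at 0 in all libraries.

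The promoters of Rcan3, the gene of the set that differed between the groups, and of Rcan1, known as a transcriptional target of calcineurin, are shown first. Mouse and human Rcan1 have a second, internal promoter known to be switched on by NFAT, which makes a feedback loop, since the RCAN1 protein restrains the phosphatase that activates NFAT. The sequences are the 250 bases before the RefSeq start (GRCm38.p6), 5′ to 3′ on the strand of the gene, with GGAAA, the core that NFAT proteins recognise, and its reverse complement TTTCC in capitals.
Rcan3, chr4:135433806-135434055, minus strand: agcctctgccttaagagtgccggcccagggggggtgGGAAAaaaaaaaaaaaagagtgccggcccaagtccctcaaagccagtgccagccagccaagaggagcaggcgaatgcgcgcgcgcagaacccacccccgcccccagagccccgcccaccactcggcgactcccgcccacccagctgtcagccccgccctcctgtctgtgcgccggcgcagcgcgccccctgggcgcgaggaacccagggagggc
Rcan1, internal start, chr16:92400079-92400328, minus strand: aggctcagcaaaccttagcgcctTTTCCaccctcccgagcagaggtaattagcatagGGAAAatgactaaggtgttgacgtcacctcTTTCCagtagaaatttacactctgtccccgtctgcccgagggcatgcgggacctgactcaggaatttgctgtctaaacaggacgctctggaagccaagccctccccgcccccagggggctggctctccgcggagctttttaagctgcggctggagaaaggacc
Rcan1, upstream start, chr16:92466170-92466419, minus strand: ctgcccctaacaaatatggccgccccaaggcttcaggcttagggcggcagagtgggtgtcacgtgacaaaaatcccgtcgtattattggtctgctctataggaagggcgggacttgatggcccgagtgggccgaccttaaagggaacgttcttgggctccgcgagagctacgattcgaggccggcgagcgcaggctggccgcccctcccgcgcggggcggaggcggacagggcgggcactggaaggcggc
The internal Rcan1 window held 3 such matches, at 227, 193 and 163 bases before the start, the Rcan3 window held 1, at 214 bases, and the upstream Rcan1 window held 0. Among all 32851 promoter windows of this length, 55.6% held at least 1 match and 6.39% held at least 3, so a single match is common. A match is a description of letters and not a binding site. Windows were found for 8 of the 10 genes. Of those not shown, the Ppp3cb window also held 3 matches, 1 Rcan2 window held 2 and 1 Fis1 window held 1. The count table has 1 value for Rcan1, which joins transcripts from both starts.

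Of the 10 genes 1 changed. Rcan3, which encodes a RCAN regulator of calcineurin, fell to 141 ± 8.72 CPM in cKO ganglia, against 193 ± 12.4 CPM in WT ganglia (SD, n = 4 each). No gene of the set rose, and 9 of 10 did not pass. The share that passed was 2.72% among all 14592 tested genes, with 1.12% lower and 1.6% higher in cKO ganglia. The median log2 fold change of the 10 genes was -0.13, against 0.00 over all tested genes, and 9 of 10 estimates were below 0, against an even split over all tested genes.

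**Figure D1:**
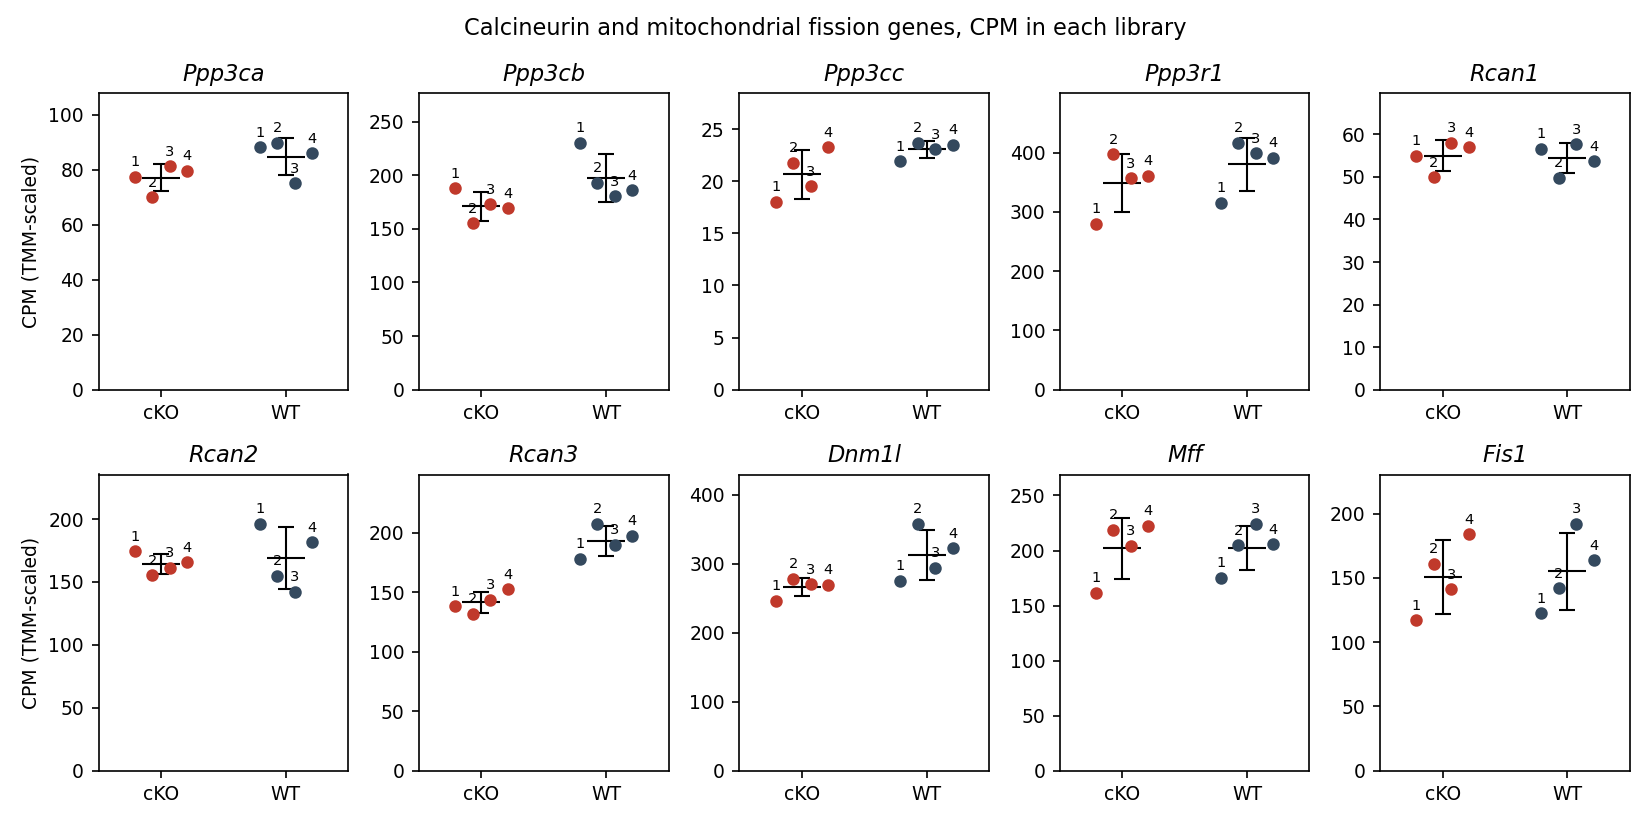
CPM of each of the 10 genes (y axis, from 0) in the 4 cKO (red) and 4 WT (dark blue) libraries, numbered as in the sample labels, with the mean and SD of each group in black. Only the Rcan3 panel has groups that do not overlap, with cKO libraries at 132 to 152 CPM and WT libraries at 178 to 207 CPM. Library 1 is the lowest of both groups in the Ppp3cc, Ppp3r1, Dnm1l, Mff and Fis1 panels.

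Rcan3 (chromosome 4, 135412308 to 135433853, minus strand, GRCm38) had 138.0, 131.8, 143.7 and 152.3 CPM in cKO libraries 1 to 4, and 177.9, 207.3, 189.8 and 197.5 CPM in WT libraries 1 to 4. The highest cKO library thus lay below the lowest WT library. Groups separated in this way, cKO below WT, in 5.02% of all tested genes. The log2 fold change was -0.45 (SE 0.09, 95% interval -0.66 to -0.24), which is 26.7% lower in cKO ganglia, and the adjusted p was 0.0331 in edgeR's quasi-likelihood test over all genes. Rcan3 stood at place 266 of all tested genes by p, and only 5 of the 163 genes that fell had a smaller change. The adjusted p was 0.122 without WT 2, 0.0695 without WT 3, 0.138 without WT 4, 0.0527 without cKO 1, 0.105 without cKO 2 and 0.0782 without cKO 3, where the call was lost, while the log2 fold change stayed between -0.49 and -0.41. Leaving out both libraries that stood apart, cKO 1 and WT 1, gave a log2 fold change of -0.48 (edgeR adjusted p = 0.0402).

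Rcan3 was also set against the neuronal marker sums, a comparison chosen after the values were seen. Per 1000 CPM of noradrenergic markers, Rcan3 had 10.8, 11.1, 11.3 and 12.9 CPM in cKO libraries 1 to 4 and 12.2, 15.1, 14.2 and 14.6 CPM in WT libraries 1 to 4. On that scale cKO 4 lay above WT 1 and the groups overlapped. The overlap depended on the markers summed. Slc6a2, with the lowest estimate of the 14 markers, was then left out of the sum. The values became 14.2, 13.7, 14.8 and 16.3 CPM in cKO libraries and 17.0, 21.5, 18.8 and 20.3 CPM in WT libraries. These groups did not overlap. Because Slc6a2 was picked for its low estimate, leaving it out lowers the cKO values against the WT values in advance. The step therefore cannot decide whether the groups differ on this scale. Chga and Isl1, with log2 estimates of 0.48 and 0.30, stayed in that sum, and leaving them out was not tried. Per 1000 CPM of pan-neuronal markers, the values were 9.70, 7.65, 8.81 and 8.54 CPM in cKO libraries and 10.1, 12.0, 9.78 and 10.2 CPM in WT libraries. The groups did not overlap, but the margin between cKO 1 and WT 3 was far smaller than the SDs, 0.84 in cKO and 1.00 in WT libraries. The part of cell makeup in the difference was not tested beyond these values.

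The other RCAN genes did not pass and had estimates near 0. Rcan1 (chromosome 16, 92391953 to 92470867, minus strand), the family member best known as an inducible feedback inhibitor, had 55.0, 49.9, 58.0 and 57.0 CPM in cKO libraries 1 to 4 and 56.6, 49.8, 57.7 and 53.7 CPM in WT libraries 1 to 4. The 2 groups covered nearly the same range, and the log2 fold change was 0.01 (SE 0.095) with a 95% interval of -0.20 to 0.22. Rcan2 (chromosome 17, 43801351 to 44039516, plus strand), a family member expressed in brain and muscle, had 174.6, 155.6, 161.5 and 165.5 CPM in cKO libraries and 196.2, 155.1, 142.4 and 181.7 CPM in WT libraries. All cKO values of Rcan2 lay inside the WT range, and its log2 fold change was -0.04 (SE 0.115, 95% interval -0.295 to 0.215). Whether Rcan3 differed from its relatives in its change was not tested.

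Per kilobase of merged exons, Rcan2 and Rcan3 stood at about the same level in WT ganglia, at 38.6 ± 5.60 and 37.8 ± 2.43 CPM per kb (SD, n = 4), and apart in cKO ganglia, at 37.6 ± 1.82 and 27.7 ± 1.71 CPM per kb (SD, n = 4). Rcan1 was lower, at 17.8 ± 1.17 CPM per kb in cKO and 17.7 ± 1.14 CPM per kb in WT ganglia. Rcan3 made up 31.9, 33.2, 33.5 and 34.6% of the summed RCAN level in cKO libraries 1 to 4, and 35.5, 44.0, 42.0 and 39.6% in WT libraries 1 to 4. The sum itself lay between 77.6 and 86.1 CPM per kb in cKO and between 88.4 and 98.0 CPM per kb in WT libraries. These shares and sums are descriptions with no test, since the genes were chosen with earlier results known.

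The catalytic subunits were each slightly lower in cKO ganglia without passing. Ppp3cb (chromosome 14, 20499364 to 20546573, minus strand), which encodes the beta isoform of the A subunit, had 187.8, 155.1, 172.8 and 169.1 CPM in cKO libraries 1 to 4 and 230.2, 193.2, 180.7 and 186.3 CPM in WT libraries 1 to 4. The groups overlapped through cKO 1, and the log2 fold change was -0.21 (SE 0.11, 95% interval -0.45 to 0.03). Ppp3ca (chromosome 3, 136670124 to 136937727, plus strand), which encodes the alpha isoform, a major one in brain, had 77.4, 70.0, 81.3 and 79.6 CPM in cKO and 88.2, 89.8, 75.1 and 86.1 CPM in WT libraries. Only WT 3 fell inside the cKO range, and the log2 fold change was -0.14 (SE 0.10, 95% interval -0.35 to 0.08). Ppp3cc (chromosome 14, 70217865 to 70289471, minus strand), which encodes the gamma isoform, abundant in testis, had 18.1, 21.8, 19.5 and 23.3 CPM in cKO and 21.9, 23.7, 23.1 and 23.5 CPM in WT libraries. The groups met at the top of the cKO range, and the log2 fold change was -0.16 (SE 0.11, 95% interval -0.41 to 0.09). Adjusted p-values of Ppp3ca, Ppp3cb and Ppp3cc were 0.554, 0.384 and 0.554 in edgeR's test.

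Ppp3cb supplied most of the catalytic transcript. It held 57.0 ± 2.67% of the summed level per kb of the catalytic genes in cKO and 57.9 ± 2.60% in WT ganglia (SD, n = 4 each), Ppp3ca held 22.7 ± 0.82% and 22.0 ± 1.19%, and Ppp3cc held 20.4 ± 2.68% and 20.1 ± 1.87%. The mix of isoforms therefore differed between groups by less than the spread between libraries. The summed catalytic level was 35.1, 31.9, 34.3 and 35.0 CPM per kb in cKO libraries 1 to 4 and 42.3, 38.9, 35.8 and 37.7 CPM per kb in WT libraries 1 to 4. The groups of this sum did not overlap, by a margin of less than 1 CPM per kb between cKO 1 and WT 3.

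Ppp3r1 (chromosome 11, 17159263 to 17200375, plus strand), which encodes the calcium-binding B subunit that all catalytic isoforms need, had 279.7, 397.0, 356.9 and 360.7 CPM in cKO libraries 1 to 4 and 315.1, 416.3, 399.1 and 391.3 CPM in WT libraries 1 to 4. Library 1 was the lowest of each group, and the log2 fold change was -0.13 (SE 0.13, 95% interval -0.41 to 0.16, edgeR adjusted p = 0.72). Ppp3r1 shares 462 bases of exon with Wdr92 on the same strand, a gene at 16.7 CPM in cKO and 18.5 CPM in WT ganglia. Per kb, Ppp3r1 stood at 3.19 ± 0.57 times the summed catalytic level in cKO and 3.08 ± 0.52 times in WT ganglia (SD, n = 4 each). The ratio was 2.47 in cKO 1 and 2.31 in WT 1, and between 3.20 and 3.85 in the other 6 libraries. With exons of coding transcripts alone the mean ratio was 1.98 in cKO and 1.91 in WT ganglia, so its size depends on the exons counted. Its testis-type relative Ppp3r2 had too few counts to be tested.

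Of the fission factors, Dnm1l had the largest estimate. Dnm1l (chromosome 16, 16312230 to 16358959, minus strand), the gene of DRP1, had 246.8, 278.5, 270.6 and 269.7 CPM in cKO libraries 1 to 4 and 275.9, 358.1, 294.7 and 322.5 CPM in WT libraries 1 to 4. The groups overlapped only through cKO 2 and WT 1. The log2 fold change was -0.23 (SE 0.10, 95% interval -0.461 to -0.002), and the adjusted p was 0.293 in edgeR's quasi-likelihood test. Without cKO 1 and WT 1 it was -0.25 (SE 0.10, edgeR adjusted p = 0.233). Per 1000 CPM of pan-neuronal markers, Dnm1l averaged 16.3 ± 0.93 CPM in cKO and 17.1 ± 2.52 CPM in WT ganglia (SD, n = 4 each), a gap smaller than the WT spread.

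Mff and Fis1, which encode outer-membrane proteins, MFF being a main receptor of DRP1 in mammalian cells, did not pass and had estimates near 0. Mff (chromosome 1, 82724890 to 82752394, plus strand) had 161.5, 218.9, 204.3 and 222.7 CPM in cKO libraries 1 to 4 and 175.3, 204.8, 224.2 and 205.5 CPM in WT libraries 1 to 4, a log2 fold change of 0.00 (SE 0.13, 95% interval -0.28 to 0.27). Fis1 (chromosome 5, 136953275 to 136966234, plus strand) had 116.9, 161.1, 141.1 and 183.8 CPM in cKO and 122.4, 141.8, 192.0 and 163.6 CPM in WT libraries, a log2 fold change of -0.04 (SE 0.17, 95% interval -0.41 to 0.33). In both genes library 1 was the lowest of its group and the groups covered about the same range. The Fis1 interval was the widest of the 10, and its lower bound lay close to the Rcan3 estimate.

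**Figure D2:**
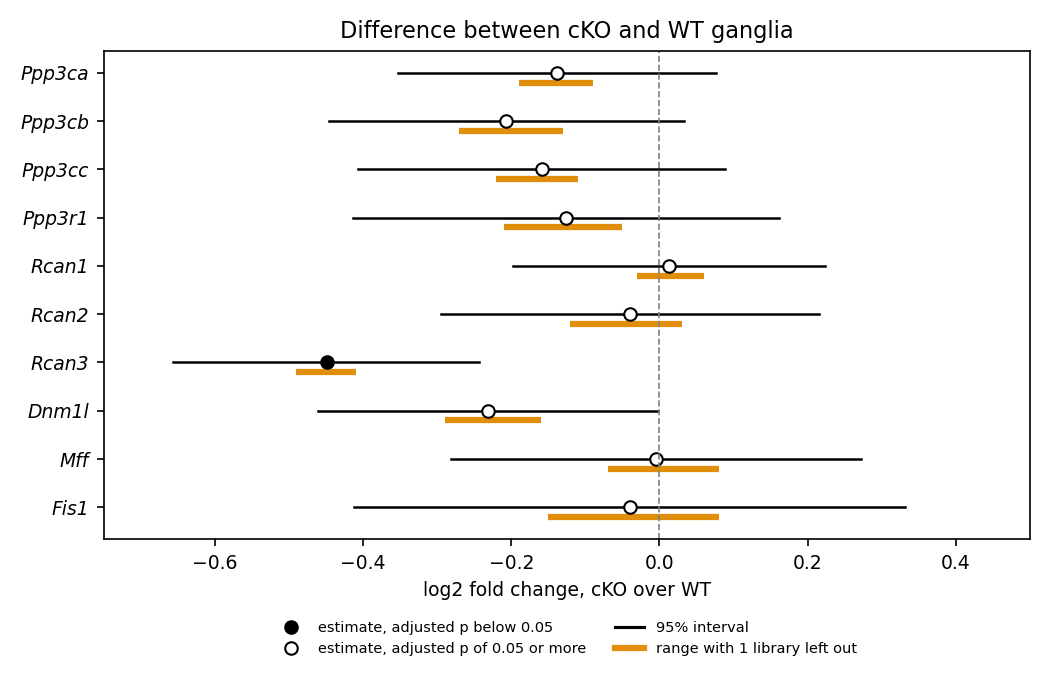
Log2 fold change of each gene, cKO over WT (x axis), with its 95% interval from edgeR's quasi-likelihood fit (black line) and, in orange, the lowest to highest estimate when 1 library was left out. The filled point marks Rcan3 at -0.45, with an adjusted p below 0.05. The intervals are not adjusted for the number of genes. That of Dnm1l, -0.461 to -0.002, lies below 0 by a narrow margin, at an edgeR adjusted p of 0.293.

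For the 9 genes that did not pass, the 95% intervals reached down to -0.46 and up to 0.33 on the log2 scale and stayed within 0.5 of 0. In counts simulated for this comparison, over 14499 genes, 37.3% of genes changed by 1.5-fold were recovered and 82.1% of those changed by 2-fold. Smaller changes of the 9 genes may therefore have gone undetected at this number of animals.

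The libraries varied together in a way that did not follow the genotype. Of the 10 genes, 5 had their lowest value of the group in library 1 of both groups, Ppp3cc, Ppp3r1, Dnm1l, Mff and Fis1, and 2 had their highest there, Ppp3cb and Rcan2. The share of all tested genes with such extremes was not counted. Over all tested genes the deviations of cKO 1 and WT 1 from their group means correlated at 0.725, so the pattern is not particular to the 10. Fis1 lay 0.35 below its group mean on the log2 CPM scale in cKO 1 and 0.32 below in WT 1, and Ppp3r1 lay 0.31 and 0.26 below. Ppp3cb lay 0.14 above its group mean in cKO 1 and 0.23 above in WT 1. For Fis1 and Ppp3r1 these deviations exceeded the difference between the genotypes. The same libraries held the most muscle marker RNA, and its part in these deviations was not tested.

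**Figure D3:**
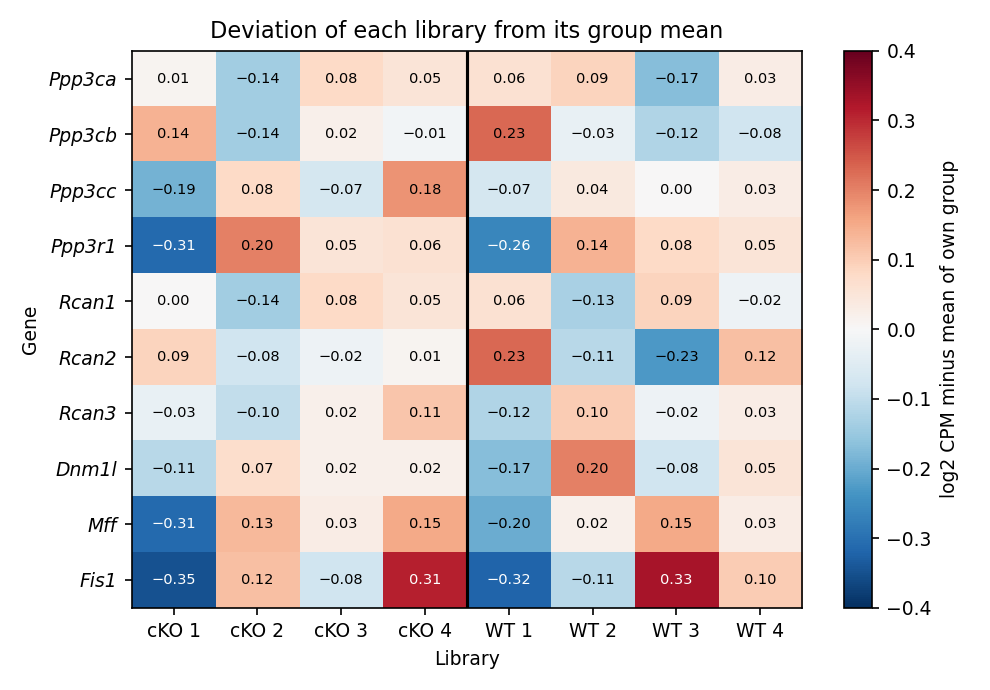
Log2 CPM of each gene in each library minus the mean of its own group (colour and printed value, red above and blue below), cKO libraries left of the black line and WT libraries right of it. The columns cKO 1 and WT 1 are both blue for Ppp3r1, Dnm1l, Mff and Fis1, and both red for Ppp3cb and Rcan2. Their values are also both below 0 for Ppp3cc (-0.19 and -0.07) and Rcan3 (-0.03 and -0.12), and both above 0 for Ppp3ca (0.01 and 0.06).

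The order of the levels per length was led by Ppp3r1, at 108 ± 15.3 CPM per kb in cKO and 118 ± 13.9 CPM per kb in WT ganglia, and Fis1, at 88.0 ± 16.6 and 90.4 ± 17.4 CPM per kb. These neighbours overlapped in their spread. Dnm1l followed at 51.2 ± 2.62 CPM per kb in cKO and 60.1 ± 6.87 CPM per kb in WT ganglia, and then came Rcan2 and Rcan3. Ppp3cb had 19.4 ± 1.53 and 22.4 ± 2.53, and Mff 20.7 ± 2.87 and 20.8 ± 2.07 CPM per kb in cKO and WT ganglia, and these did not differ beyond their spread, nor did Mff and Rcan1 in cKO ganglia. Ppp3ca, at 7.72 ± 0.50 and 8.50 ± 0.66 CPM per kb in cKO and WT ganglia, and Ppp3cc, at 6.92 ± 0.78 and 7.73 ± 0.26 CPM per kb, came last and overlapped in both groups. The order rests on the exons counted: with those of coding transcripts alone, a setting added after the values were seen, Mff came next after Fis1 and Ppp3r1, at 92.6 ± 12.9 CPM per kb in cKO and 92.8 ± 9.26 CPM per kb in WT ganglia, since its merged exons shorten from 9757 to 2181 bases.

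**Figure D4:**
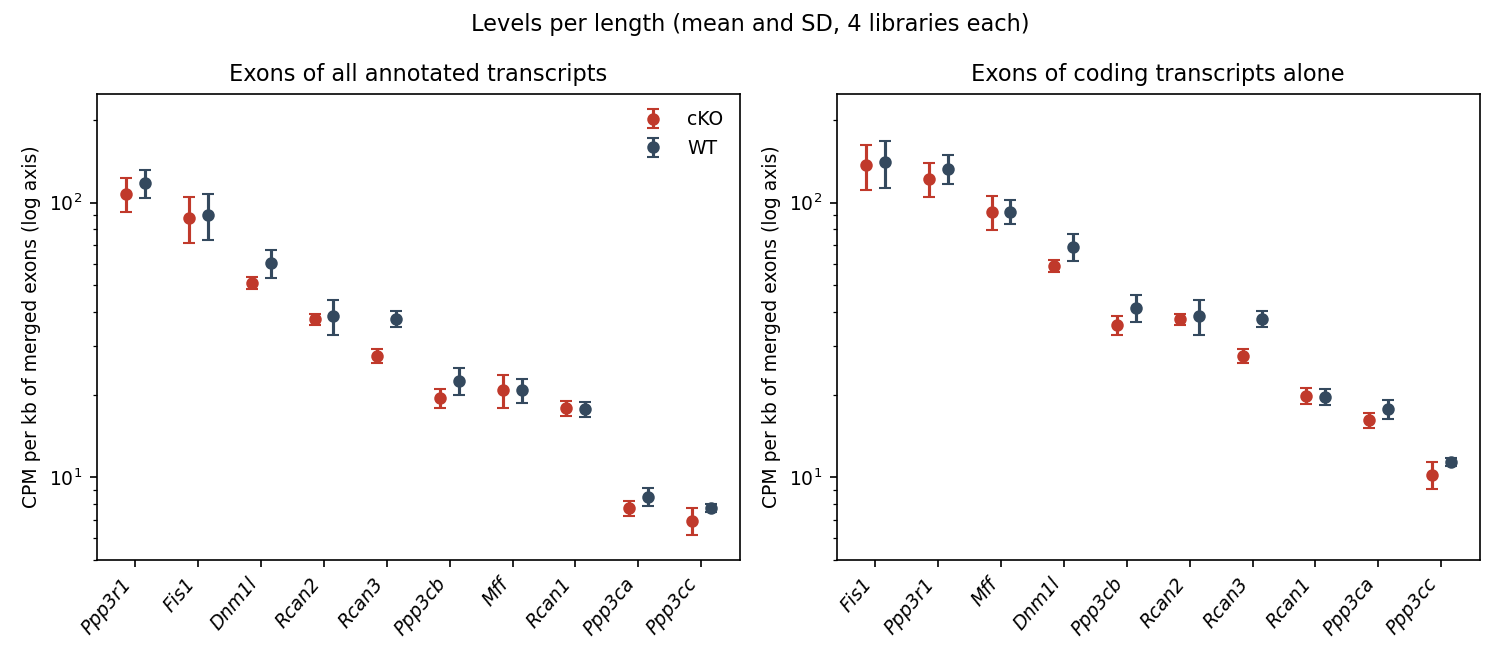
Mean level and SD of each gene per kb of merged exons (log y axis) in cKO (red) and WT (dark blue) ganglia, 4 libraries each, ordered by the WT level, with exons of all annotated transcripts at left and of coding transcripts alone at right. Ppp3r1 and Fis1 lead and Ppp3ca and Ppp3cc close the order in both panels, while Mff moves from 20.8 to 92.8 CPM per kb in WT ganglia.

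Around these genes, 57 others of the same routes were examined in 8 lists, 56 of them tested. Of these 2 fell, none rose and 54 did not pass, a share of 3.57% against 2.72% among all tested genes. An unadjusted p below 0.05 was found for 12 of them, 21.4%, against 16.8% of all tested genes. Their median log2 fold change was -0.12, and 40 of 56 were below 0. The lists were chosen as pathways with earlier results of these data known, and were not tested as sets.

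The gene with the largest fall was Ppp2r2b, a neuronal regulatory subunit of protein phosphatase 2A, 1 splice form of which is known to bring that phosphatase to mitochondria, where it dephosphorylates DRP1 as calcineurin does. It had 116, 179, 161 and 193 CPM in cKO libraries 1 to 4 and 229, 309, 335 and 312 CPM in WT libraries 1 to 4, with no overlap. Its log2 difference was -0.87 with an SE of 0.17 (edgeR adjusted p = 0.0269). The count joins all splice forms. The call was lost without WT 2 (adjusted p = 0.101), WT 3 (0.0626), WT 4 (0.0966), cKO 2 (0.0587) or cKO 3 (0.0688), with log2 fold changes between -0.98 and -0.75 over all libraries left out. Per 1000 CPM of pan-neuronal markers it had 8.17 to 10.8 CPM in cKO and 13.0 to 17.9 CPM in WT libraries, which did not overlap, while per 1000 CPM of noradrenergic markers cKO 4, at 16.3 CPM, lay above WT 1, at 15.7 CPM. With Slc6a2 left out of that sum the groups of Ppp2r2b did not overlap, at 11.9 to 20.6 CPM in cKO and 21.9 to 33.1 CPM in WT libraries. Chga and Isl1, with estimates above 0, again stayed in the sum. As for Rcan3, the choice of Slc6a2 lowers the cKO values against the WT values in advance. The other enzymes and anchors that act on DRP1, 8 genes, did not pass. Among them Senp5, which removes SUMO from DRP1, stood at -0.27 on the log2 scale (SE 0.12), and Prkaca, the kinase subunit that phosphorylates DRP1 at the site calcineurin clears, at -0.20 (SE 0.10).

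Of 7 dephosphins, the endocytic proteins that calcineurin dephosphorylates at nerve terminals, 1 fell and 6 did not pass. Amph, which encodes amphiphysin, a membrane-curving partner of dynamin, had 86.8, 82.9, 91.9 and 99.1 CPM in cKO libraries 1 to 4 and 125, 134, 131 and 126 CPM in WT libraries 1 to 4. The groups were well apart, and the log2 difference was -0.52 with an SE of 0.09 (edgeR adjusted p = 0.0184). Amph also stayed apart per 1000 CPM of noradrenergic markers, at 6.79 to 8.39 CPM in cKO and 8.58 to 9.81 CPM in WT libraries. Its call was lost without WT 2 (adjusted p = 0.0789), WT 4 (0.0748), cKO 2 (0.0621) or cKO 3 (0.0548). Synj1, the synaptojanin gene, was at -0.46 on the same scale (SE 0.13), which missed the threshold at an adjusted p of 0.0877, although its cKO libraries all lay below its WT libraries. The median of the list was -0.24.

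Most estimates of the nuclear arm had the other sign, but those of the CRTC coactivator genes lay near 0. Crtc1, Crtc2 and Crtc3 had log2 fold changes of -0.13, 0.06 and 0.01 (SE 0.23, 0.13 and 0.23). Of 8 calcineurin-responsive transcription factors and coactivators none passed, 7 had positive estimates and the median log2 fold change was 0.26. Nfatc4 had 13.5 ± 3.69 CPM in cKO and 8.44 ± 2.67 CPM in WT ganglia (SD, n = 4 each), a log2 difference of 0.68 (SE 0.25) that did not pass (edgeR adjusted p = 0.192). Nfatc3 had 34.1 ± 4.76 CPM in cKO and 28.2 ± 3.32 CPM in WT ganglia, a log2 fold change of 0.27 (SE 0.13). Glial, vessel and fibroblast marker sums were higher in the same cKO libraries, and their part in the NFAT values was not tested.

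Upstream, Calm3, a gene of the calcium sensor calmodulin, had a log2 difference of -0.26 (SE 0.11, edgeR adjusted p = 0.242) and did not pass. Of 7 tested calcineurin partners, anchors and immunophilins none passed. Chp2 and Chp1, genes of calcineurin B-like proteins, had 0.53 (SE 0.19) and -0.17 (SE 0.10). The cKO libraries of Chp2 all lay above its WT libraries. Ppia, the cyclophilin A gene and normally an abundant transcript with many near-identical copies in the genome, had only 1.46 CPM in cKO and 1.35 CPM in WT ganglia, so that its row cannot be read as its expression.

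The rest of the mitochondrial shape and transport genes did not pass either. Of 11 other fission factors 7 had estimates below 0. Gdap1, an outer-membrane protein mutated in a peripheral neuropathy, had 195 ± 11.6 CPM in cKO and 243 ± 24.4 CPM in WT ganglia (SD, n = 4 each), a log2 difference of -0.31 (SE 0.10) with no overlap of the groups that did not pass (edgeR adjusted p = 0.14). Mief1, a DRP1 receptor listed under the older symbol Smcr7l, had -0.21 (SE 0.10), also with no overlap. Groups did not overlap, in either direction, in 11% of all tested genes. All 6 fusion factors had estimates below 0, with a median of -0.18. Mfn2, the mitofusin of outer-membrane fusion, stood at -0.21 (SE 0.09, edgeR adjusted p = 0.266), with no overlap of the groups. Opa1, the fusion GTPase of the inner membrane, was at -0.19 (SE 0.10). All 5 genes that couple mitochondria to motors or anchor them in axons were also below 0 without passing, led by Snph, the axonal anchor syntaphilin, at -0.39 (SE 0.14), and Trak2, a motor adaptor, at -0.27 (SE 0.11). The pan-neuronal markers also had estimates below 0, 10 of 10, and their part in these values was not tested.

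**Figure D5:**
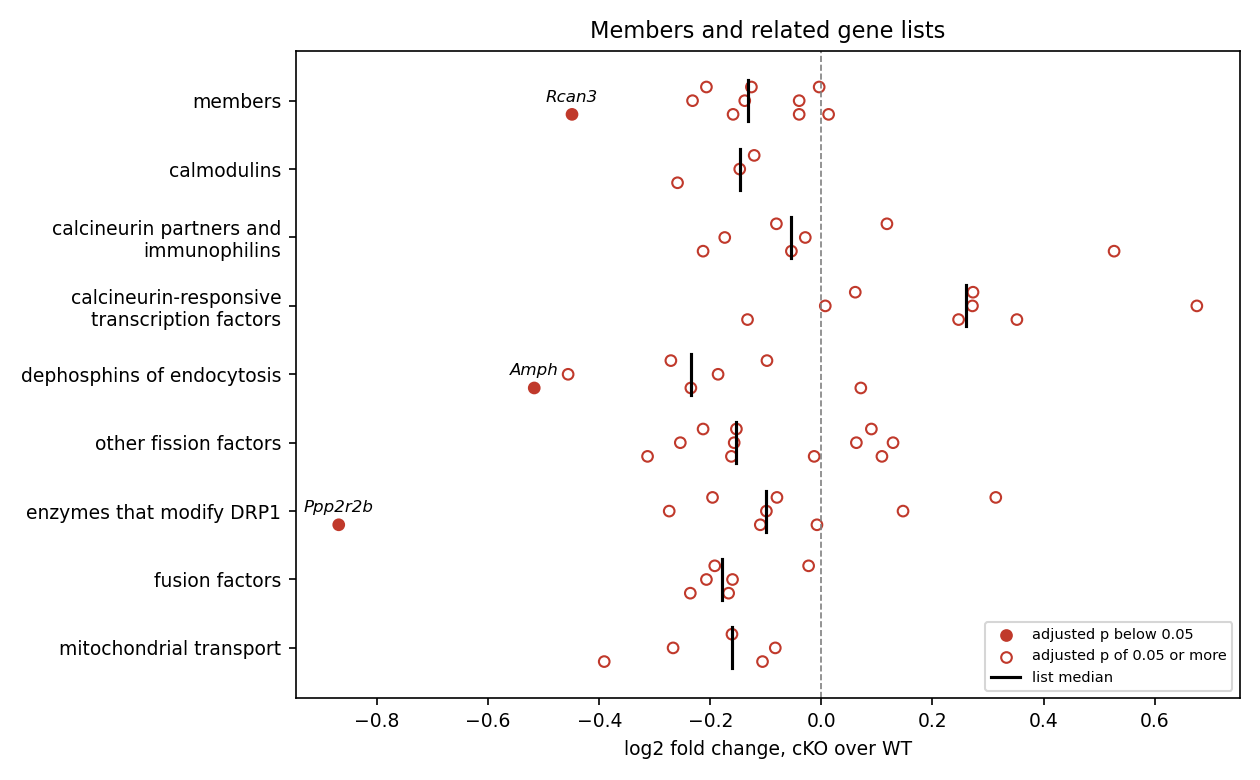
Log2 fold change, cKO over WT (x axis), of the 10 genes (top row, labelled members) and of the tested genes of 8 related lists, with filled points for an adjusted p below 0.05 and black bars for the median of each row. The filled points are Rcan3, Amph and Ppp2r2b, all below 0, and the row of calcineurin-responsive transcription factors is the one with a median above 0, at 0.26.

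The genes most like Rcan3 and Dnm1l were sought by Pearson correlation of log2 CPM over the 8 libraries, as a description of likeness with no test, since the libraries fall into 2 genotypes and a shared difference between them raises it. The likest to Rcan3 were Prkar2b (r = 0.992), Grm2 (0.992) and Dner (0.987), each with cKO libraries wholly below WT libraries. Prkar2b, a regulatory subunit of protein kinase A, fell by 0.55 on the log2 scale (SE 0.10, edgeR adjusted p = 0.0181). The most opposite were Rftn2 (r = -0.986), Mcm7 (-0.985) and Slc35d2 (-0.985), each with cKO libraries wholly above WT libraries. For Dnm1l the likest were Acsl4 (r = 0.984), Hspa4 (0.984) and Gopc (0.968), and the most opposite were Zfp467 (-0.986), Card10 (-0.986) and Cmtm3 (-0.984). Of the 6 genes of Dnm1l none passed edgeR's test.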

How the data were processed

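Per the file headers the deposited table has 1 row per gene symbol, and its values are raw counts that the authors made from polyadenylated RNA (TruSeq v2 libraries, per the labels' protocols). The submitters' processing notes name STAR and mm10. No source used here gives the counting program, the annotation or the use of strand, and reads of overlapping genes may be shared or dropped. Columns were matched to libraries by title.

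The test was edgeR 4.0.16 (R 4.3.3) with TMM, filterByExpr and a robust quasi-likelihood fit on genotype alone, with Benjamini-Hochberg adjustment over 14592 genes and a threshold of 0.05. The SE of a log2 fold change is its size over the square root of F. CPM used TMM-scaled library sizes, and log2 CPM a prior count of 2. Coordinates and exon lengths come from GENCODE vM21 (GRCm38), promoters from RefSeq.

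The alternatives were other scalings and filters, DESeq2 1.42.0, limma 3.58.1 (voom), a replicate block, and libraries left out. The main edgeR test was also run on simulated data with 200 changed genes, and 3.31% of its calls were false. Genes were drawn independently there, and the alternatives were not run on simulated data. The genes, lists and tests were chosen with earlier results of these data known. Outside the genes and lists, genes were named by a rule: for the pair of genes with the smallest p, the 3 likest and 3 most opposite genes by correlation, predicted genes left out. Lists named up to 4 genes that passed or, where none did, the 2 with the smallest p. Wdr92, the overlapping neighbour that was tested, and Kif1b, Th, Dbh and Sox10 were named too. Untested neighbours share 243 exon bases with Dnm1l, 195 with Mff, 91 with Ppp3cc and 44 with Rcan3. Slc6a2, Chga, Isl1, Synj1, Crtc1, Crtc2, Crtc3, Senp5, Prkaca, Ppia, Ppp3r2, Nefl and Nefm were named after their values were seen. A gene that the rule takes is not reported here but enters the counts. Figures were drawn with matplotlib 3.10.9.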

Additional observations from a re-analysis of the deposited data

How the results depend on the processing

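Of the 10 genes, Rcan3 alone passed, and it kept its direction under all 17 alternatives and passed under 10 of them. Over all genes the count that passed was 397, and it was 1012 with the Wald test of DESeq2, 687 with the replicate block, and 65 without both libraries numbered 4, where 0 of the 10 genes passed. Leaving out 1 library gave between 74 and 514 genes over the table and between 0 and 1 of the 10. Scaling by library size alone gave 343 higher and 145 lower genes, against 234 and 163. The excess of higher genes turned without cKO 4 (153 higher, 176 lower), WT 4 (33 and 41), WT 2 (39 and 40) or both libraries numbered 4 (26 and 39). Scaling by library size moved the median of all genes by 0.05, and the estimates of Rcan2, Mff and Fis1 then became 0.01, 0.04 and 0.01. Signs of estimates near 0 also turned with libraries left out. Rcan1 then ranged from -0.03 to 0.06, Rcan2 from -0.12 to 0.03, Mff from -0.07 to 0.08 and Fis1 from -0.15 to 0.08. Without both libraries numbered 1, Rcan2 was 0.01 and Mff 0.03, and without both numbered 4 Rcan1 was -0.01. The cause was not tested. Same-numbered libraries did not all deviate together (correlations 0.725, 0.352, -0.302 and 0.265 for numbers 1 to 4), so the numbers were not taken as pairs, and the replicate block gave Rcan3 a log2 fold change of -0.45 (adjusted p = 0.0347) and left the other 9 genes without a call. With 4 animals a group, changes under 2-fold are often missed.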
